A study of Mus musculus with 12 samples.

Results

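Kinesins and dyneins are the motor proteins that walk along microtubules. Most kinesins move toward the plus end of a microtubule and cytoplasmic dynein 1 moves toward the minus end. One set of kinesins builds and pulls apart the mitotic spindle and is made in dividing cells, whereas others, with cytoplasmic dynein 1, carry vesicles, mitochondria and mRNA along the axons and dendrites of neurons, which no longer divide. A further set works in the assembly and beating of cilia.

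The motor genes were taken as every gene whose name on the array begins with Kif and a number or is Klc1 to Klc4, a cytoplasmic dynein subunit (Dync) or a dynein light chain of the Dynll, Dynlr or Dynlt kind. This gave 56 genes of the 31732 names on the array, each read by its brightest probe. By their known roles they fall into 12 mitotic kinesins, 10 kinesins and light chains of axonal transport, 12 subunits of cytoplasmic dynein 1, 9 motors tied to cilia and 13 others. Of the 56 genes 53 could be tested, since in some group their Cy5 signal stood above background on 3 of 3 arrays. Kif14, Kif2b and Kif4b did not reach this and are left without a value. The probes named Dynlt1c and Dynlt1e stand for near-identical copies of one gene and may each pick up the RNA of both. The RefSeq table gives the probe named Dynlt1e as Dynlt1f and the one named Kif4b as Kif4-ps.

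All samples came from a C57BL/6 embryonic stem cell (mESC) line, Actin-eGFP, that had been led toward neurons in culture. Control cells of step 4 were neural precursors, kept with 10 ng/ml bFGF for 5 days. Control cells of step 5 had gone through 7 more days of neuronal differentiation, with 200 µM ascorbic acid in place of bFGF. The enriched groups of both steps had passed through a magnetic column with an antibody to PSA-NCAM, the form of the neural cell adhesion molecule with polysialic acid that immature neurons carry. For step 5 the labels do not settle at which point of the culture this selection took place. Each of the 4 groups had 3 biological replicates, and each of the 12 arrays set 1 sample (Cy5) against the same mESC RNA (Cy3), so that every value is a log2 ratio to mESC or a difference of such ratios. The replicate number is also the slide. These are bulk samples, in which fewer cells of a type and less RNA per cell cannot be told apart, and the number of arrays limits the precision.

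The labels were checked against marker genes. All 9 neuron markers on the list, Dcx and Tubb3 among them, were above background in every group, as were all 10 markers of cycling cells. So were all 8 markers of pluripotent cells, and detection therefore does not tell the groups apart. The control array of step 5 on slide 2 stood apart: across genes its group's arrays correlated with each other at r = 0.66 to 0.92, and its median for 7 astrocyte markers was 0.59 against 3.10 and 3.39 on the other two arrays of the group. At step 4 the enriched array of slide 1 had a neuron marker median of 0.72, against 3.09 and 3.07 on the other enriched arrays and 0.99 on the control array of its own slide. Taken marker by marker, the median difference between these 2 arrays of slide 1 was 0.65, higher in enriched cells. Markers of other tissues were present too. The median log2 ratio of 7 mesenchyme genes was between 2.86 and 6.72 on every array. For some differences between enriched and control cells that lost their call or moved by over 1.5 times without one of these arrays, that value is given. It is not given for all of them, Dynll1 and Kif6 at step 5 and Dynlt3 at step 4 among these. A difference printed without such a value is therefore not shown to be stable.

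**Figure D1:**
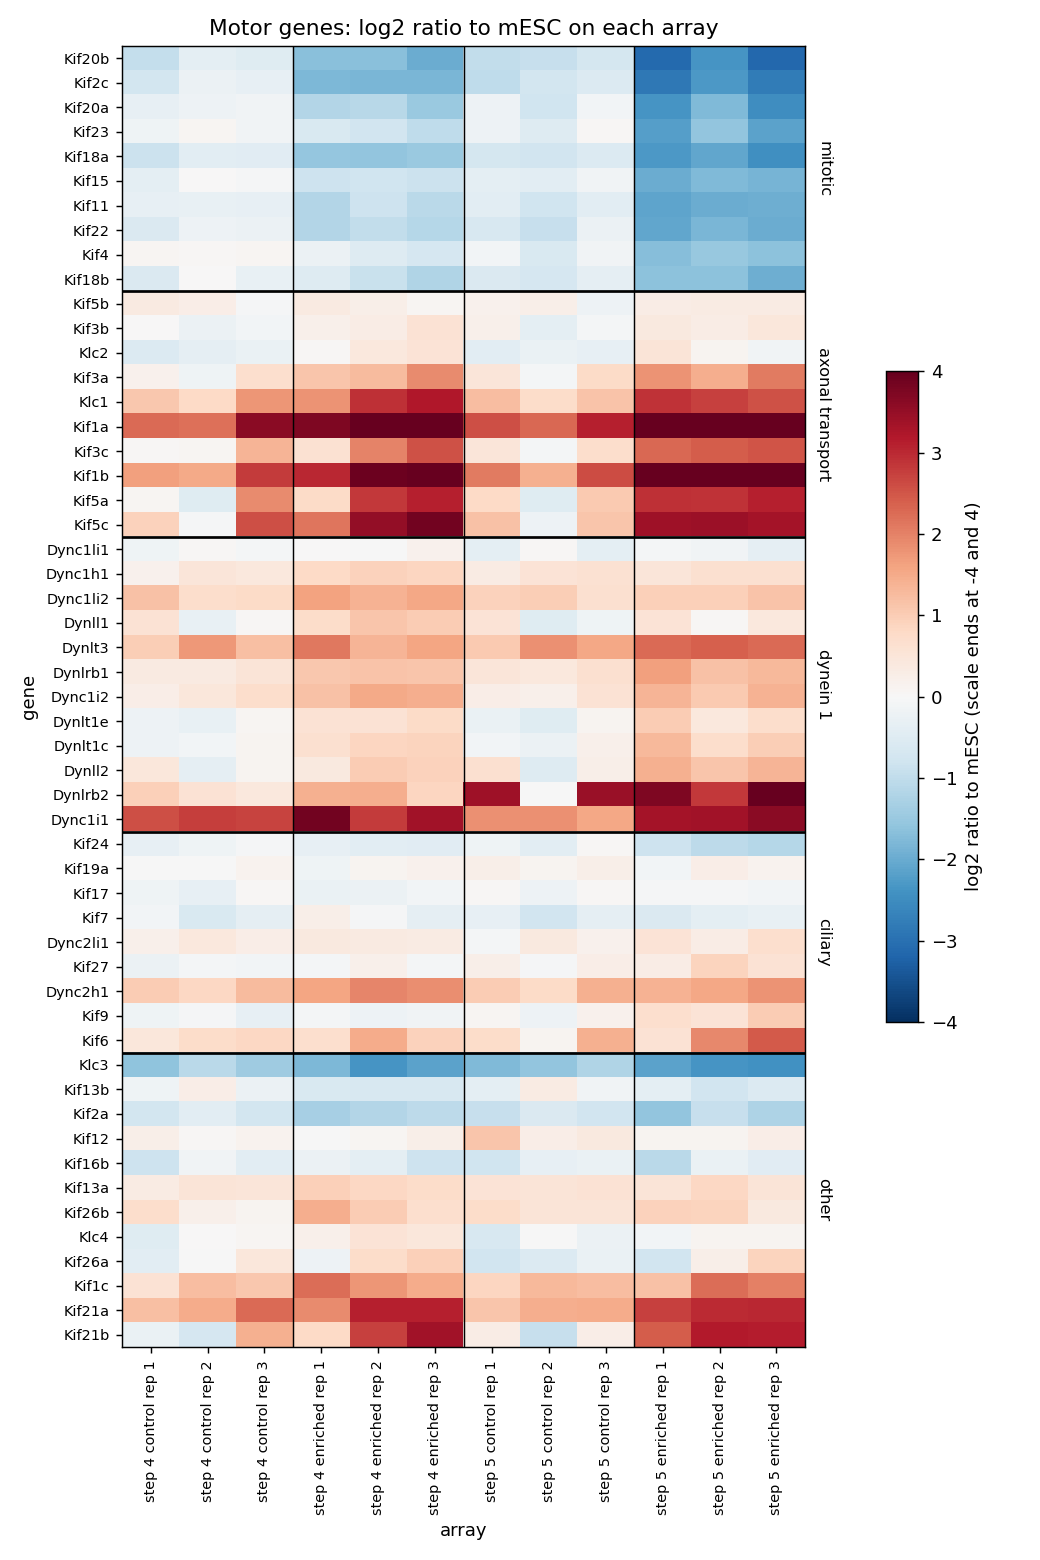
Log2 ratio to mESC of the 53 tested motor genes (rows, in 5 groups by role) on the 12 arrays (columns), with red for higher and blue for lower than mESC; within a role, genes are ordered by their difference between enriched and control cells at step 5. Mitotic kinesins are palest in control cells and bluest in step 5 enriched cells, and most axonal transport genes are reddest in the enriched cells of both steps.

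Mitotic kinesins were lower in PSA-NCAM-enriched cells than in control cells at both steps. All 10 tested genes were lower at step 4, with log2 differences of -1.38 to -0.53 and a median of -0.72, and all 10 at step 5, with differences of -1.98 to -1.23 and a median of -1.58. Over all 22312 genes tested, 16.2% were called lower at step 4 and 20.2% at step 5, and the median difference of all genes was 0.01 and -0.01. A gene was called at an adjusted p under 0.05 by limma, a linear model with moderated tests, after Benjamini-Hochberg adjustment over all genes tested. Within single slides the median over the 10 genes was -0.64, -0.85 and -0.90 at step 4 and -1.65, -1.15 and -1.82 at step 5.

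Kif11 encodes the kinesin-5 that slides spindle microtubules apart to form a bipolar spindle (probe at chr19:37495755-37495814, mm9). On slides 1, 2 and 3 its log2 ratio to mESC was -0.34, -0.29 and -0.32 in step 4 control cells, -1.16, -0.83 and -1.07 in step 4 enriched cells, -0.43, -0.78 and -0.43 in step 5 control cells and -2.12, -2.00 and -1.97 in step 5 enriched cells. Enriched arrays lay below every control array at both steps. The log2 difference was -0.70 (SE 0.12, adjusted p = 0.00275) at step 4 and -1.48 (SE 0.12, adjusted p = 7.58e-05) at step 5, which is 1.63-fold and 2.79-fold lower.

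Kif2c, a kinesin-13 that takes microtubules apart at centromeres, had the largest difference of the mitotic kinesins at step 4 (probe at chr4:116832904-116832963, mm9). Its ratios on the 3 slides were -0.74, -0.22 and -0.34 in step 4 control cells, -1.79, -1.81 and -1.84 in step 4 enriched cells, -1.00, -0.74 and -0.55 in step 5 control cells and -2.87, -2.29 and -2.79 in step 5 enriched cells. Enriched cells were 2.6-fold lower at step 4, at -1.38 (SE 0.19, adjusted p = 0.000736), and 3.69-fold lower at step 5, at -1.89 (SE 0.19, adjusted p = 0.000106). The groups did not overlap at either step, and a second probe of the gene gave -1.32 and -1.84. Kif20b, a kinesin of late mitosis and cytokinesis, had the largest difference of the list at step 5. Its log2 ratios were -0.96, -0.38 and -0.50 in step 4 control cells, -1.67, -1.67 and -1.99 in step 4 enriched cells, -1.00, -0.92 and -0.72 in step 5 control cells and -3.10, -2.35 and -3.14 in step 5 enriched cells. Control and enriched arrays were again apart at both steps, with differences of -1.16 (SE 0.22, adjusted p = 0.004) and -1.98 (SE 0.22, adjusted p = 0.00017).

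Kif23 and Kif20a act in the central spindle, where the daughter cells are pulled apart in cytokinesis. Kif23 (probe at chr9:61767492-61767732, mm9) had ratios of -0.19, 0.06 and -0.15 in step 4 control cells, -0.62, -0.75 and -1.01 in step 4 enriched cells, -0.19, -0.51 and 0.05 in step 5 control cells and -2.21, -1.59 and -2.13 in step 5 enriched cells. In control cells it was thus near its mESC level, and the enriched cells lay below it. The difference from control cells was -0.71 (SE 0.19, adjusted p = 0.0202) at step 4 and -1.76 (SE 0.19, adjusted p = 0.000157) at step 5. For Kif20a the values were -0.33, -0.20 and -0.15 in step 4 control cells, -1.16, -1.10 and -1.48 in step 4 enriched cells, -0.21, -0.80 and -0.11 in step 5 control cells and -2.35, -1.78 and -2.49 in step 5 enriched cells. Its differences were -1.02 (SE 0.22, adjusted p = 0.00715) and -1.83 (SE 0.22, adjusted p = 0.000229), with no overlap of the groups. Kif4, a chromokinesin that binds chromosome arms and the central spindle, had the smallest difference at step 4 among the 10 (probe at chrX:97922085-97922145, mm9). Its ratios were 0.07, 0.04 and 0.07 in step 4 control cells, -0.22, -0.53 and -0.66 in step 4 enriched cells, -0.10, -0.60 and -0.16 in step 5 control cells and -1.72, -1.50 and -1.65 in step 5 enriched cells. Enriched cells were lower on every slide, with differences of -0.53 (SE 0.15, adjusted p = 0.0248) at step 4 and -1.34 (SE 0.15, adjusted p = 0.000182) at step 5. The other mitotic kinesins, Kif15, Kif18a, Kif18b and Kif22, differed by -0.96 to -0.59 at step 4 and by -1.61 to -1.23 at step 5. Kif18b was the single mitotic kinesin whose groups overlapped, at step 4, because the enriched array of slide 1 (-0.53) lay just above the control array of that slide (-0.56). The share of all genes whose groups were apart is not given here, so overlap only describes these genes.

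**Figure D2:**
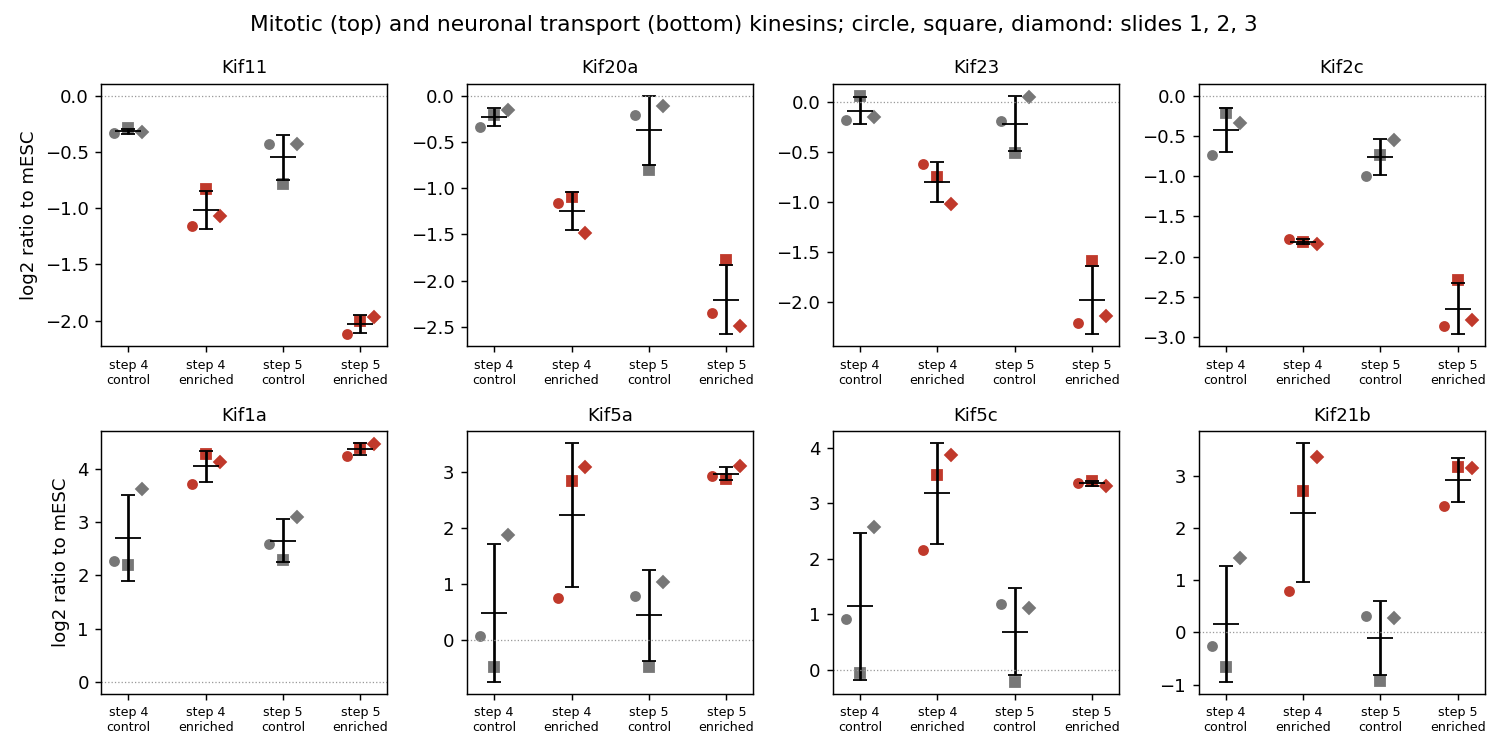
Log2 ratio to mESC (vertical axis, its range set per gene) of 4 mitotic kinesins (top) and 4 neuronal transport kinesins (bottom) in the 4 groups; points are arrays, with circles, squares and diamonds for slides 1, 2 and 3, and bars give the mean and SD (n = 3). The mitotic kinesins step down from step 4 to step 5 enriched cells, and Kif5a, Kif5c and Kif21b spread widely in step 4 control cells but lie close together in step 5 enriched cells, except for Kif21b on slide 1.

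The mitotic kinesins also fell from step 4 to step 5 within enriched cells. All 10 were lower at step 5, by -1.18 to -0.74 with a median of -0.98. The groups did not overlap for any of them, again without a share of all genes to set beside this. Of all genes tested 2.47% fell and 3.96% rose in this comparison. Kif23 differed by -1.18 (SE 0.19, adjusted p = 0.00837), Kif4 by -1.15 (SE 0.15, adjusted p = 0.00341), Kif20b by -1.09 (SE 0.22, adjusted p = 0.0195), Kif11 by -1.01 (SE 0.12, adjusted p = 0.00256), Kif20a by -0.96 (SE 0.22, adjusted p = 0.03) and Kif2c by -0.83 (SE 0.19, adjusted p = 0.0273). Control cells showed no such call. Their median step 5 minus step 4 difference over the same genes was -0.24, 0 of the 10 passed limma's test and 1, Kif4 at -0.34 (SE 0.15, adjusted p = 0.566), had an unadjusted p under 0.05; of all genes 0% were called, with 1917 at an unadjusted p under 0.05. The fall was seen on slides 1, 2 and 3, with medians of -1.14, -0.80 and -0.97, but fewer genes passed the test when arrays were left out. Counts of the 10 mitotic kinesins called went to 6 without the step 4 enriched array of slide 1, to 4 without that of slide 2, to 6 without the step 5 enriched array of slide 1 and to 4 without that of slide 3, and all of slide 1, 2 or 3 left out gave 2, 6 and 0.

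Whether enrichment lowered the mitotic kinesins more at step 5 than at step 4 was tested as a difference of the enrichment effects. Its median over the 10 genes was -0.79, with -1.15, -0.15 and -0.86 on slides 1, 2 and 3. By limma 0 of the 10 passed over all genes, and 9 had an unadjusted p under 0.05. Kif15 had the lowest adjusted p of the 10, at -0.87 (SE 0.18, adjusted p = 0.286), and Kif11 followed at -0.78 (SE 0.18, adjusted p = 0.297). Over all genes 0% passed, with 1574 at an unadjusted p under 0.05. A larger effect at step 5 was therefore not shown.

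The markers of cycling cells moved with the mitotic kinesins. Their median over 10 genes, among them Mki67 and Top2a, was -0.51 to -0.37 in step 4 control cells, -1.37 to -1.07 in step 4 enriched cells, -0.95 to -0.34 in step 5 control cells and -2.20 to -1.78 in step 5 enriched cells. Of these 10 genes 6 were lower in enriched cells at step 4 and 10 at step 5. Mki67 did not fall at step 4, with a mean ratio of -0.36 in control and -0.30 in enriched cells. The medians of the mitotic kinesins were -0.48 to -0.21, -1.16 to -0.93, -0.75 to -0.30 and -2.16 to -1.80 in the same 4 groups. Markers of pluripotent cells, which divide fast, moved too: the median of 8 of them was -0.94 to -0.68 in step 4 control cells, -4.61 to -3.56 in step 4 enriched cells, -0.91 to -0.69 in step 5 control cells and -4.50 to -2.93 in step 5 enriched cells. Germ cell markers fell as well, 5 of 5 tested at both steps, and their median was 0.47 to 1.66 in step 4 control cells, -3.11 to -2.19 in step 4 enriched cells, 1.84 to 2.63 in step 5 control cells and -2.49 to -0.73 in step 5 enriched cells. The part of a change in the number of dividing, pluripotent or germ cells in the values of the mitotic kinesins was not tested. Leaving out slide 2 left 6 mitotic kinesins called at step 4 and leaving out slide 3 left 2, while all 10 were called at step 5 under each of the 25 alternatives run. Not all of these alternatives are separate checks, as described with the processing below.

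Promoter sequences of the mitotic kinesins were set beside these values because the genes moved together. RefSeq promoters (GRCm38.p6, a later build than that of the probes, with 250 bases before to 50 after each start site) were found for 45 of the 56 motor genes and 11 of the 12 mitotic kinesins. The cell cycle genes homology region, TTTGAA on either strand, is a promoter element known from genes of the G2 phase and mitosis. It was in the windows of 9 of the 11 mitotic kinesins, against 20.2% of all 27025 genes with a promoter in the table, 1 of 7 axonal transport genes, 0 of 10 dynein 1 genes, 1 of 7 ciliary genes and 1 of 10 others. Its variant TTCGAA, which reads the same on both strands and was counted apart, was in 0 of the 11 and in 1.80% of all genes. The letters CCAAT, also on either strand, were in 7 of the 11 and 41.1% of all genes, and GCGCATG was in 0 of the 11 and 4.41% of all genes. A match of letters is not a site shown to be used. The 120 bases before the start site are printed for 4 mitotic kinesins with TTTGAA in that stretch and for the axonal transport kinesin Kif5c, in which no match was found, 5′ to 3′ on the strand of the gene, with TTTGAA or its reverse complement TTCAAA in capitals.
Kif11 (chr19:37376262-37376381, plus strand): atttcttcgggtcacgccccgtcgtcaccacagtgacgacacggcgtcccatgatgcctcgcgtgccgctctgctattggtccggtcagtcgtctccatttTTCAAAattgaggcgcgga
Kif15 (chr9:122950961-122951080, plus strand): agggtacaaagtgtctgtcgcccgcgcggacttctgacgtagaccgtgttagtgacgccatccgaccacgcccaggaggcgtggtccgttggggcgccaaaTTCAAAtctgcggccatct
Kif22 (chr7:127042421-127042540, minus strand): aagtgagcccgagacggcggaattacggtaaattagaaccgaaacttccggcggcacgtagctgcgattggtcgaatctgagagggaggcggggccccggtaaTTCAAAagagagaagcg
Kif2c (chr4:117178773-117178892, minus strand): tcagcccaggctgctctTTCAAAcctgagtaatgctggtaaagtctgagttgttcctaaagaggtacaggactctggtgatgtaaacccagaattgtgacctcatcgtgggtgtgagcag
Kif5c (chr2:49619166-49619285, plus strand): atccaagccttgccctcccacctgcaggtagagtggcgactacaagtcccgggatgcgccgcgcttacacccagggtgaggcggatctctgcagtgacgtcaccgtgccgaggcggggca
In Kif11 and Kif15 the match printed begins 19 bases before the start site and in Kif22 17 bases before it, whereas in Kif2c it lies 103 bases before. The whole windows of Kif15 and Kif22 hold a further match each, 234 and 215 bases before the start. Kif23, Kif18b, Kif20b and Kif4 carry the letters within 25 bases after the start, and Kif14 carries them 228 bases before it. Outside the list, a promoter of Kif1a, Kif26b and Kif27 each holds a match.

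Axonal transport kinesins were higher in enriched cells. At step 4, 7 of 10 genes were called higher and 0 lower, with a median log2 difference of 1.29, and at step 5, 9 of 10 were higher and 0 lower, with a median of 1.71. Among all genes 15.0% were called higher at step 4 and 20.3% at step 5. At step 5 every gene of the list but Kif5b passed the test. With the replicate number as a block, 9 of the 10 were called at step 4, Kif3c and Kif5a being added, and 8 at step 5, where Klc2 missed the threshold at adjusted p = 0.0568. The block also raised the calls of all 22312 genes, to 4430 higher and 4339 lower at step 4 and to 5202 and 5270 at step 5.

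The kinesin-1 heavy chains differed from each other. Kif5a and Kif5c are the forms made mainly in neurons, and Kif5b is the form made in most cells. Kif5c (probe at chr2:49630228-49630287, mm9) had log2 ratios of 0.92, -0.06 and 2.57 in step 4 control cells, 2.16, 3.52 and 3.87 in step 4 enriched cells, 1.18, -0.22 and 1.11 in step 5 control cells and 3.38, 3.41 and 3.32 in step 5 enriched cells on slides 1, 2 and 3. Control cells of slide 3 at step 4 were thus above the enriched cells of slide 1, and at step 5 the groups were apart. The difference was 2.04 (SE 0.65, adjusted p = 0.0357) at step 4 and 2.68 (SE 0.65, adjusted p = 0.00812) at step 5, or 4.1-fold and 6.4-fold. Kif5a (probe at chr10:126662797-126662856, mm9) had ratios of 0.08, -0.48 and 1.88 in step 4 control cells, 0.76, 2.84 and 3.10 in step 4 enriched cells, 0.78, -0.48 and 1.03 in step 5 control cells and 2.93, 2.88 and 3.10 in step 5 enriched cells. Its arrays overlapped at step 4, where the difference of 1.74 (SE 0.70, adjusted p = 0.0842) did not pass, and were apart at step 5, with 2.52 (SE 0.70, adjusted p = 0.0165). Without the step 4 enriched array of slide 1, Kif5a differed by 2.48 at step 4 (SE 0.63, adjusted p = 0.0168), and without the step 5 control array of slide 2 it differed by 2.06 at step 5 (SE 0.75, adjusted p = 0.0601). The first of these arrays was the lowest of its group for Kif5a. Leaving it out had to enlarge the step 4 difference, so the larger value adds no support. A dimmer probe of Kif5a, for another transcript, gave 0.33 and 0.00.

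Kif5b had ratios of 0.36, 0.26 and -0.05 in step 4 control cells, 0.36, 0.22 and 0.08 in step 4 enriched cells, 0.17, 0.23 and -0.21 in step 5 control cells and 0.31, 0.34 and 0.32 in step 5 enriched cells. All arrays lay within 0.36 of the mESC level. Its difference was 0.03 (SE 0.15, adjusted p = 0.894) at step 4, with a 95% interval of -0.29 to 0.36, and 0.26 (SE 0.15, adjusted p = 0.185) at step 5, with -0.07 to 0.58, so differences of the size of Kif5c's lie outside both intervals.

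Kinesin-1 works with light chains that bind its cargo. Klc1, the light chain abundant in neurons (probe at chr12:113027568-113027627, mm9), had ratios of 1.08, 0.80 and 1.75 in step 4 control cells, 1.81, 2.91 and 3.20 in step 4 enriched cells, 1.22, 0.73 and 1.13 in step 5 control cells and 2.89, 2.75 and 2.54 in step 5 enriched cells. Enriched arrays were above all control arrays, by 1.43 (SE 0.34, adjusted p = 0.0113) at step 4 and 1.70 (SE 0.34, adjusted p = 0.00327) at step 5. A second probe of Klc1, for another transcript, gave 0.49 and 0.27. Klc2 differed by 0.73 (SE 0.18, adjusted p = 0.0125) and 0.51 (SE 0.18, adjusted p = 0.0435). In the ungrouped light chains, Klc3, known from testis, was lower at both steps, by -0.73 (SE 0.19, adjusted p = 0.0179) and -0.79 (SE 0.19, adjusted p = 0.0088), and Klc4 had 0.53 (SE 0.19, adjusted p = 0.0591) and 0.33 (SE 0.19, adjusted p = 0.192); with the replicate block Klc4 passed at both steps, at adjusted p = 0.00503 and 0.0274. A second probe of Klc3 gave smaller differences, -0.354 and -0.325. The germ cell markers, which include genes of the testis, were lower in the same comparisons, with medians of -4.10 and -4.11, and their part in the values of Klc3 was not tested. Without the step 5 control array of slide 2 the step 5 difference of Klc2 was 0.55 (SE 0.21, adjusted p = 0.0662).

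The kinesin-3 motors Kif1a and Kif1b carry synaptic vesicle precursors, dense core vesicles and, for one form of Kif1b, mitochondria. Kif1a (probe at chr1:94912112-94912171, mm9) had ratios of 2.27, 2.19 and 3.62 in step 4 control cells, 3.72, 4.29 and 4.13 in step 4 enriched cells, 2.58, 2.29 and 3.10 in step 5 control cells and 4.24, 4.40 and 4.46 in step 5 enriched cells. It was well above the mESC level already in control cells, where slide 3 was highest at both steps, and the enriched arrays were higher still. The difference was 1.35 (SE 0.35, adjusted p = 0.0158) at step 4 and 1.71 (SE 0.35, adjusted p = 0.00351) at step 5, and a second probe gave 0.58 and 0.91. Kif1b (probe at chr4:148550431-148550490, mm9) had 1.65, 1.51 and 2.81 in step 4 control cells, 3.02, 3.92 and 4.08 in step 4 enriched cells, 2.08, 1.41 and 2.60 in step 5 control cells and 4.09, 4.11 and 4.39 in step 5 enriched cells. No control array reached an enriched array of the same step. Its differences were 1.68 (SE 0.40, adjusted p = 0.0111) and 2.17 (SE 0.40, adjusted p = 0.00214), or 3.21-fold and 4.49-fold. The probe for another transcript of Kif1b gave 0.90 at step 4 and 0.19 at step 5, so the size of the difference depends on the probe.

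Kif3a, Kif3b and Kif3c are subunits of kinesin-2, in which Kif3a pairs with Kif3b or Kif3c; the complex works in axons and in the building of cilia. Kif3a (probe at chr11:53397887-53397946, mm9) had ratios of 0.18, -0.19 and 0.67 in step 4 control cells, 1.10, 1.28 and 1.88 in step 4 enriched cells, 0.48, -0.09 and 0.76 in step 5 control cells and 1.78, 1.47 and 2.09 in step 5 enriched cells. Its groups did not overlap, and the differences were 1.20 (SE 0.29, adjusted p = 0.0125) and 1.40 (SE 0.29, adjusted p = 0.00415), with 1.25 and 1.57 by a second probe. Kif3c, found mainly in neurons (probe at chr12:3406435-3406494, mm9), had 0.05, 0.08 and 1.36 in step 4 control cells, 0.61, 1.99 and 2.55 in step 4 enriched cells, 0.49, -0.06 and 0.70 in step 5 control cells and 2.28, 2.42 and 2.51 in step 5 enriched cells. At step 4 the enriched array of slide 1 lay below the control array of slide 3, and the difference was 1.22 (SE 0.48, adjusted p = 0.0747). With the replicate block its adjusted p was 0.0281, and without that enriched array the difference was 1.78 (SE 0.39, adjusted p = 0.00924). That array was the lowest of its group, so leaving it out had to enlarge the difference and adds no support. At step 5 the difference of Kif3c was 2.03 (SE 0.48, adjusted p = 0.00709). Kif3b differed by 0.47 (SE 0.15, adjusted p = 0.0409) and 0.47 (SE 0.15, adjusted p = 0.033), against -0.08 and 0.05 by its second probe. Without the step 5 control array of slide 2 its step 5 difference was 0.33 (SE 0.15, adjusted p = 0.112).

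**Figure D3:**
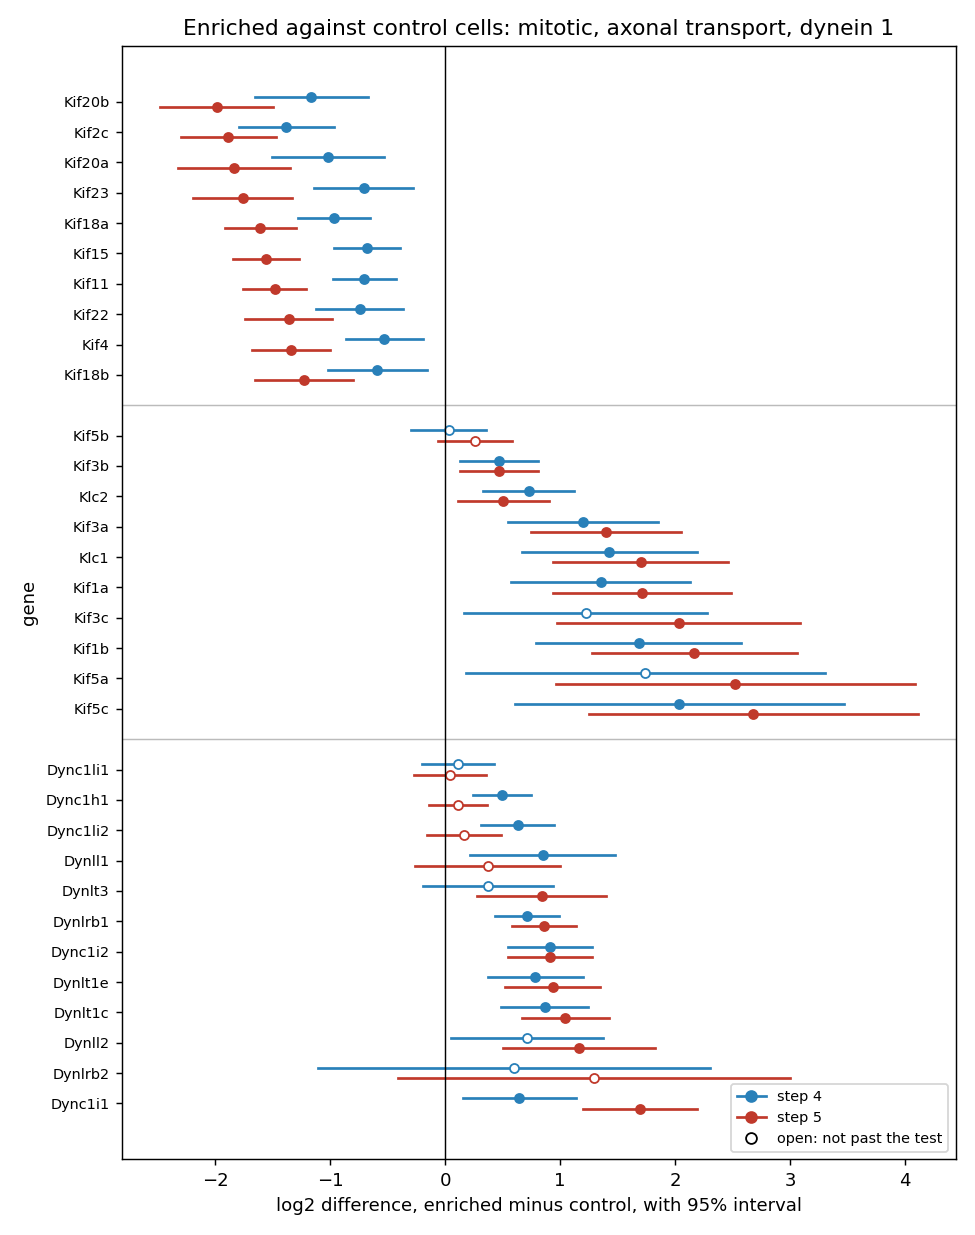
Log2 difference between enriched and control cells (horizontal axis) at step 4 (blue) and step 5 (red) for 10 mitotic kinesins, 10 axonal transport genes and 12 dynein 1 subunits, with 95% intervals from the model; filled points passed the test over all genes. Every mitotic kinesin lies left of 0, and the intervals of Kif5b, Dync1li1 and Dynlrb2 include 0 at both steps. Those of Dync1h1, Dync1li2 and Dynll1 include 0 at step 5 and that of Dynlt3 at step 4. Intervals are widest for Kif5a, Kif5c and Dynlrb2.

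The axonal transport genes did not change detectably from step 4 to step 5. In enriched cells 0 of 10 were called by limma, with a median of 0.25, and the largest difference was that of Kif5a, 0.74 (SE 0.70, adjusted p = 0.601). In control cells 0 of 10 were called, with a median of -0.04, and 0 had an unadjusted p under 0.05. The difference between the 2 enrichment effects had a median of 0.32 with 0 calls and 0 unadjusted p-values under 0.05. On slide 1 the enriched cells rose by a median of 0.88 from step 4 to step 5, and on slides 2 and 3 the median was 0.07 and -0.02.

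Neuron markers moved with the axonal transport genes across arrays. The median of the 9 neuron markers on slides 1, 2 and 3 was 0.99, 0.50 and 1.80 in step 4 control cells, 0.72, 3.09 and 3.07 in step 4 enriched cells, 1.29, 0.41 and 1.24 in step 5 control cells and 2.35, 2.35 and 2.68 in step 5 enriched cells. For the axonal transport genes these medians were 0.27, 0.01 and 1.55, then 0.93, 2.41 and 2.83, then 0.64, -0.08 and 0.90, and 2.59, 2.59 and 2.53. On slide 1 at step 4 the axonal transport median was higher in enriched than in control cells while the neuron marker median was lower. Taken gene by gene, however, the median difference between enriched and control cells on that slide was 0.65 for the neuron markers. It was 0.71 for the axonal transport genes, so the 2 lists did not part there. Of the 9 neuron markers 1 was called higher at step 4, or 4 with the replicate block, and 8 at step 5. Markers of other neural cells were higher in enriched cells too. Of 7 markers of neural stem cells and radial glia 4 were called higher at both steps, with medians of 1.17 and 1.13. Of 7 astrocyte markers 0 were called by limma at step 4, where 1 had an unadjusted p under 0.05, and 5 at step 5, with a median of 2.09, and of 7 oligodendrocyte lineage markers 0 at step 4, where 0 had such a p, and 4 at step 5, with a median of 1.82. The part of a change in the number of neurons or of these other cells in the values of the motor genes was not tested. Without slide 2, 0 of 10 axonal transport genes were called at step 4 and 3 at step 5, and without slide 3 the counts were 3 and 7; without the step 4 enriched array of slide 1 alone 9 were called at step 4, and without the step 4 enriched array of slide 3 alone 2 were. Further single arrays brought the step 4 count to 3, the control array of slide 2, and to 4, the control array of slide 1 and the enriched array of slide 2, as did all of slide 1, and without the step 5 control array of slide 2, 6 of 10 were called at step 5.

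**Figure D4:**
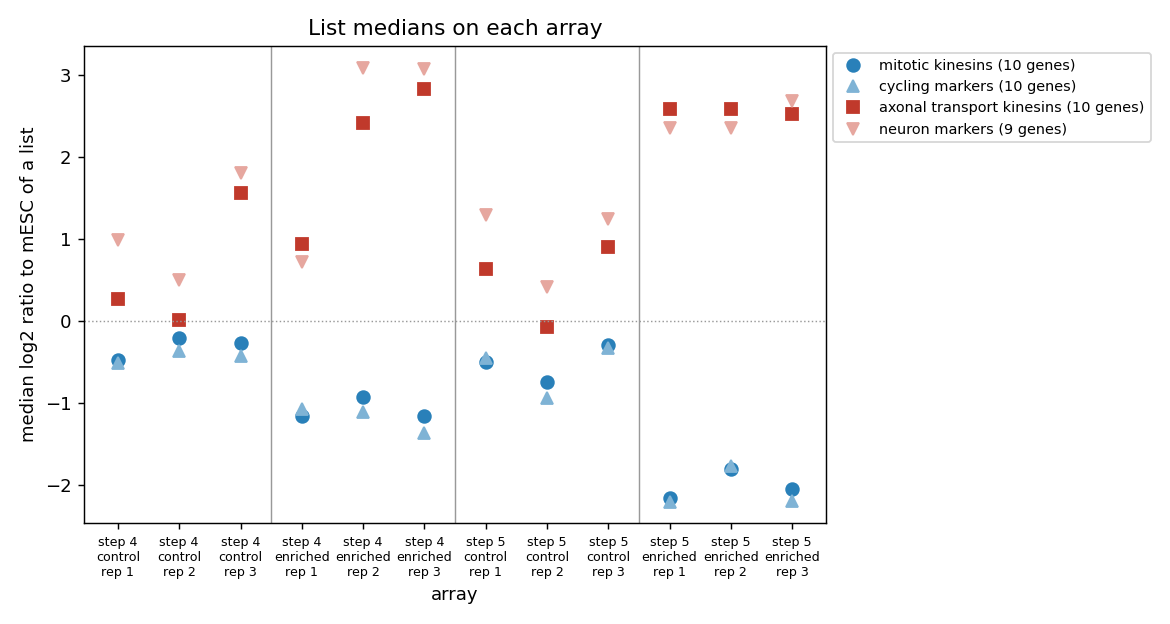
Median log2 ratio to mESC on each of the 12 arrays (horizontal axis) for mitotic kinesins, markers of cycling cells, axonal transport genes and neuron markers. The distance between the axonal transport and mitotic medians is 0.22 to 1.82 in step 4 control cells, 2.09 to 3.99 in step 4 enriched cells, 0.67 to 1.19 in step 5 control cells and 4.39 to 4.75 in step 5 enriched cells.

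The contrast between transport and division can be read as the axonal transport median minus the mitotic median of an array, which on a log2 scale measures how far the 2 sets of motors stand apart from their proportion in mESC. It was 0.93 ± 0.82 (SD, n = 3) in step 4 control cells and 3.14 ± 0.97 in step 4 enriched cells, 1.00 ± 0.29 in step 5 control cells and 4.57 ± 0.18 in step 5 enriched cells. Every enriched array lay above every control array. The spread was smallest in step 5 enriched cells, where the axonal median was 2.57 ± 0.04 and the mitotic median -2.01 ± 0.19. Step 4 enriched cells had a similar spread in the mitotic median, -1.08 ± 0.13, but a wide one in the axonal median, 2.06 ± 1.00.

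Subunits of cytoplasmic dynein 1 were higher in enriched cells in smaller steps. At step 4, 8 of 12 genes were called higher and 0 lower, with a median difference of 0.68, and at step 5, 7 were higher and 0 lower, with a median of 0.89, beside the 15.0% and 20.3% of all genes called higher. The genes called were partly different: Dync1h1, Dync1li2 and Dynll1 passed at step 4 alone, and Dynlt3 and Dynll2 at step 5 alone, with no difference between the steps past the test for any of them. Slide 3 mattered most for the step 4 count, which was 1 of 12 without it and 4 of 12 without slide 2; with the deposited values or the scanner software's ratios 5 of 12 were called.

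Dync1h1 is the heavy chain that holds the motor domain, made from a single gene (probe at chr12:111904896-111904955, mm9). Its ratios were 0.19, 0.48 and 0.41 in step 4 control cells, 0.79, 0.92 and 0.85 in step 4 enriched cells, 0.31, 0.53 and 0.61 in step 5 control cells and 0.50, 0.65 and 0.65 in step 5 enriched cells. Enriched arrays were above control arrays at step 4 and overlapped with them at step 5. The difference was 0.50 (SE 0.11, adjusted p = 0.00941) at step 4 and 0.12 (SE 0.11, adjusted p = 0.46) at step 5. The intermediate chains join the motor to dynactin and cargo, and Dync1i1 is the form of neurons while Dync1i2 is found in most cells. Dync1i1 (probe at chr6:5977935-5977994, mm9) had 2.58, 2.77 and 2.72 in step 4 control cells, 3.86, 2.80 and 3.35 in step 4 enriched cells, 1.82, 1.84 and 1.55 in step 5 control cells and 3.33, 3.35 and 3.61 in step 5 enriched cells. It was far above the mESC level in all groups. Enriched cells were higher by 0.65 (SE 0.22, adjusted p = 0.0488) at step 4, which missed the threshold with the replicate block at adjusted p = 0.0518, and by 1.69 (SE 0.22, adjusted p = 0.000358) at step 5. Its step 4 difference was 0.38 (SE 0.18, adjusted p = 0.131) without the step 4 enriched array of slide 1 and had an adjusted p of 0.0536 without the step 5 control array of slide 2. Its second probe gave 0.66 and 1.30. Dync1i2 (probe at chr2:71101270-71101329, mm9) had 0.25, 0.44 and 0.71 in step 4 control cells, 1.17, 1.52 and 1.46 in step 4 enriched cells, 0.27, 0.20 and 0.59 in step 5 control cells and 1.37, 1.05 and 1.38 in step 5 enriched cells. The differences, 0.91 (SE 0.17, adjusted p = 0.00301) and 0.91 (SE 0.17, adjusted p = 0.00188), were alike at the 2 steps and passed under all 25 alternatives.

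The light chains bind the intermediate chains. Dynll1, which is also part of other complexes (probe at chr5:115747353-115747412, mm9), had ratios of 0.59, -0.31 and 0.04 in step 4 control cells, 0.74, 1.10 and 1.02 in step 4 enriched cells, 0.54, -0.48 and -0.18 in step 5 control cells and 0.54, 0.04 and 0.42 in step 5 enriched cells. Its groups were apart at step 4, at 0.85 (SE 0.28, adjusted p = 0.0441), and overlapped at step 5, at 0.37 (SE 0.28, adjusted p = 0.329). Without the step 4 enriched array of slide 1 the step 4 difference was 0.96 (SE 0.32, adjusted p = 0.0501). Dynll2 differed by 0.71 (SE 0.30, adjusted p = 0.0921) and 1.17 (SE 0.30, adjusted p = 0.0107), Dynlrb1 by 0.71 (SE 0.13, adjusted p = 0.00268) and 0.86 (SE 0.13, adjusted p = 0.000603), and Dynlt3 by 0.37 (SE 0.25, adjusted p = 0.293) and 0.84 (SE 0.25, adjusted p = 0.0236). A second probe of Dynll2 gave smaller differences, 0.26 and 0.61. Of the light intermediate chains, Dync1li2 differed by 0.63 (SE 0.15, adjusted p = 0.00938) and 0.17 (SE 0.15, adjusted p = 0.394), and Dync1li1 by 0.11 (SE 0.14, adjusted p = 0.593) and 0.05 (SE 0.14, adjusted p = 0.823).

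Dynlrb2, a light chain known from ciliated tissues, behaved unlike the others and is named here after its values were seen. Its log2 ratios were 0.94, 0.59 and 0.41 in step 4 control cells, 1.43, 1.46 and 0.85 in step 4 enriched cells, 3.39, 0.00 and 3.45 in step 5 control cells and 3.72, 2.83 and 4.17 in step 5 enriched cells. Every step 5 array lay above every step 4 array, except the step 5 control array of slide 2, which was at the mESC level. Step 5 minus step 4 was 2.32 (SE 0.77, adjusted p = 0.106) in enriched cells and 1.63 (SE 0.77, adjusted p = 0.606) in control cells. Between enriched and control cells of step 5 it differed by 1.29 (SE 0.77, adjusted p = 0.209), or by 0.15 (SE 0.35, adjusted p = 0.772) without that 1 array. Without it the differences between the steps were 2.32 (SE 0.31, adjusted p = 0.00307) and 2.77 (SE 0.35, adjusted p = 0.00588), and both passed. The array left out was the one far from its group, so leaving it out had to narrow the spread that all groups share. In enriched cells the difference itself stayed the same and only its SE fell. These passes are therefore no support for a change between the steps. On the same array the median of 10 multiciliated cell markers was -0.07, against 0.73 and 0.97 on the other step 5 control arrays.

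Of the 9 motors tied to cilia 1 was called higher and 0 lower at step 4, where 15.0% of all genes were called higher and 16.2% lower. At step 5, 2 were higher and 1 lower, where 20.3% of all genes were called higher and 20.2% lower. These counts are near or below the shares of all genes. The gene called at step 4 was Dync2h1, the heavy chain of the dynein that returns cargo from the tip of the cilium, at 0.75 (SE 0.19, adjusted p = 0.0152). At step 5 it differed by 0.50 (SE 0.19, adjusted p = 0.0592) and passed with the replicate block, at adjusted p = 0.019. Kif9, known from motile cilia, was higher at step 5, at 0.72 (SE 0.15, adjusted p = 0.00348), and Kif24, a centriolar kinesin that keeps dividing cells from forming cilia, was lower, at -0.83 (SE 0.14, adjusted p = 0.00111). Other tested probes of Kif9 gave 0.599, 0.484 and 0.405 at step 5. The other gene counted as higher at step 5 was Kif27, with a difference of 0.43, or 0.34 without the step 5 control array of slide 2, where its call was lost. Kif27 was above background on 0, 2, 2 and 3 arrays of the step 4 control, step 4 enriched, step 5 control and step 5 enriched groups and on 0 of 12 arrays in mESC RNA, so it entered the test only through the group in which it is highest, its values are close to the background and its call supports nothing. The count of 2 higher became 1 with the scanner software's ratios, plain background subtraction, the deposited values, no filter on dim probes or a filter on all 12 arrays, and 4 with median centring or the slide as a random block.

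Kif9 had ratios of -0.17, -0.04 and -0.34 in step 4 control cells, -0.07, -0.20 and -0.16 in step 4 enriched cells, 0.09, -0.21 and 0.17 in step 5 control cells and 0.67, 0.54 and 1.01 in step 5 enriched cells. It was near the mESC level in 3 groups and above it on all arrays of step 5 enriched cells. From step 4 to step 5 it rose in enriched cells by 0.88 (SE 0.15, adjusted p = 0.00897) and differed by 0.20 (SE 0.15, adjusted p = 0.848) in control cells, and the difference between its enrichment effects was 0.68 (SE 0.21, adjusted p = 0.462). Kif24 fell in enriched cells from step 4 to step 5 by -0.61 (SE 0.14, adjusted p = 0.0263). Kif6, another kinesin of motile cilia, had 0.46, 0.75 and 0.82 in step 4 control cells, 0.69, 1.48 and 0.93 in step 4 enriched cells, 0.72, 0.10 and 1.43 in step 5 control cells and 0.59, 1.93 and 2.46 in step 5 enriched cells, with differences of 0.36 (SE 0.46, adjusted p = 0.591) and 0.91 (SE 0.46, adjusted p = 0.137). A second probe of Kif6 gave 0.48 and 0.33. Multiciliated cell markers rose between the steps as well: of 10 genes, 5 were called higher at step 5 in enriched cells, with a median of 0.85, and 0 in control cells, with a median of 0.67. Their median was -0.16 to -0.02 in step 4 enriched cells, 0.66 to 0.96 in step 5 enriched cells and -0.07 to 0.97 in step 5 control cells. Above background on all 3 arrays were 8 and 9 of the 10 in step 4 control and enriched cells. In step 5 control and enriched cells the numbers were 7 and 10, so most were detected in every group. At step 4, 2 of the 10 were called lower in enriched cells and 0 higher, where 16.2% of all genes were called lower and 15.0% higher. Between enriched and control cells of step 5, 0 of these 10 markers were called by limma and 1, Dnah5, with the replicate block; 3 had an unadjusted p under 0.05. The part of such cells in the values of Kif9 and Dynlrb2 was not tested.

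Kif17, a kinesin-2 that carries NMDA receptor subunits in dendrites and enters cilia (probe at chr4:137857341-137857400, mm9), had ratios of -0.17, -0.32 and 0.03 in step 4 control cells, -0.27, -0.22 and -0.10 in step 4 enriched cells, 0.04, -0.19 and 0.05 in step 5 control cells and -0.06, -0.05 and -0.12 in step 5 enriched cells. All arrays lay within 0.32 of the mESC level and the groups overlapped at both steps. Its differences were -0.05 (SE 0.11, adjusted p = 0.789) and -0.04 (SE 0.11, adjusted p = 0.811), with 95% intervals of -0.30 to 0.21 and -0.29 to 0.21. Kif7, the regulator of Hedgehog signalling in cilia, differed by 0.31 (SE 0.19, adjusted p = 0.241) and 0.08 (SE 0.19, adjusted p = 0.778).

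**Figure D5:**
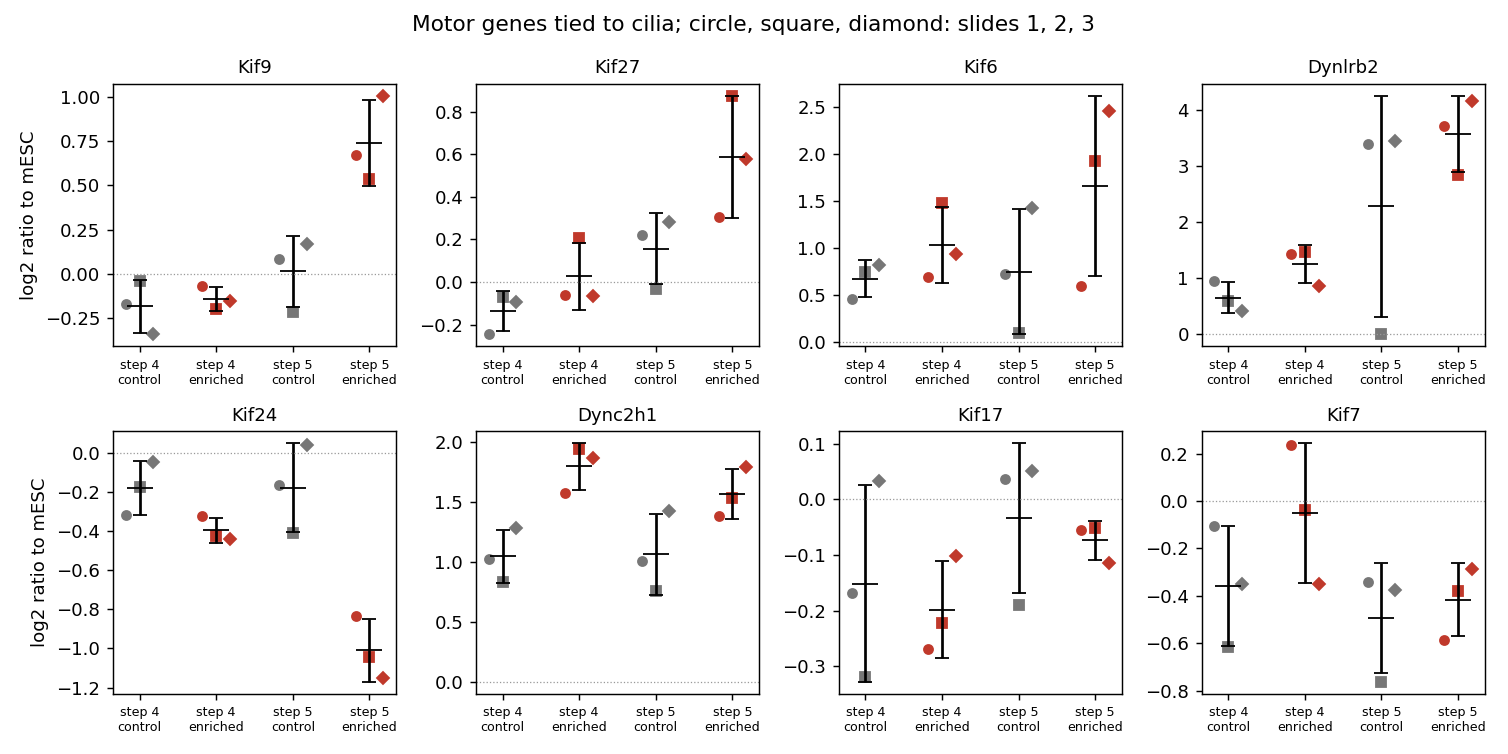
Log2 ratio to mESC (vertical axis, its range set per gene) of 7 motors tied to cilia and of Dynlrb2 in the 4 groups; points are arrays, with circles, squares and diamonds for slides 1, 2 and 3, and bars give the mean and SD (n = 3). Kif9 and Kif24 stand apart from the other groups in step 5 enriched cells, and Dynlrb2 is high on all step 5 arrays but the control array of slide 2.

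Among the 12 other motors tested, 5 were higher and 3 lower in enriched cells at step 4, and 2 were higher and 2 lower at step 5. Of all genes 15.0% were called higher and 16.2% lower at step 4, and 20.3% and 20.2% at step 5. Kif21b, a kinesin-4 found in dendrites of neurons (probe at chr1:138074490-138074549, mm9), had the largest difference of all 53 motor genes at both steps. Its ratios were -0.26, -0.67 and 1.43 in step 4 control cells, 0.80, 2.72 and 3.37 in step 4 enriched cells, 0.31, -0.93 and 0.28 in step 5 control cells and 2.43, 3.17 and 3.16 in step 5 enriched cells. Slide 1 was the lowest of the enriched arrays at each step, and slide 3 the highest control array at step 4, where the groups overlapped. The difference was 2.13 (SE 0.69, adjusted p = 0.0393) at step 4 and 3.04 (SE 0.69, adjusted p = 0.00616) at step 5, or 4.38-fold and 8.2-fold. Without the step 4 enriched array of slide 1 the step 4 difference was 2.88 (SE 0.60, adjusted p = 0.00794). Leaving out the lowest enriched array had to enlarge the difference, so this value adds no support. Kif21a, its close relative, was higher by 1.05 (SE 0.34, adjusted p = 0.0387) and 1.56 (SE 0.34, adjusted p = 0.00496). Kif1c, Kif13a and Kif26b were higher at step 4 alone, by 0.86, 0.38 and 0.71, against 0.68, 0.08 and 0.14 at step 5, and the difference between the steps did not pass for any of them. The calls of these 3 genes were lost without the step 4 enriched array of slide 1, at adjusted p = 0.134, 0.0795 and 0.111. The other probes of Kif1c, for the same transcript, gave 0.03 and 0.17 at step 4 and 0.05 and 0.26 at step 5. The step 4 calls were unsteady: 0 of these 12 motors were called without slide 2 or without slide 3, and 2 were higher and 2 lower with the deposited values.

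Kif2a, a kinesin-13 of the spindle that also trims axon branches, was lower at both steps by its brightest probe, at -0.55 (SE 0.18, adjusted p = 0.0384) and -0.49 (SE 0.18, adjusted p = 0.0467), but its other probes gave 0.41 and 0.03 at step 4 and 0.59 and 0.12 at step 5, so the direction depends on the probe. By the brightest probe its step 4 call was lost without the step 4 enriched array of slide 1, at adjusted p = 0.1, and its step 5 call without that array or without the step 5 control array of slide 2, at 0.0519 and 0.14. Kif13b was lower at step 4, at -0.59 (SE 0.19, adjusted p = 0.0414), and without the step 4 enriched array of slide 1 it was at -0.60 (SE 0.23, adjusted p = 0.0725). Kif26a differed by 0.64 (SE 0.42, adjusted p = 0.253) at step 5 and passed with the replicate block, at adjusted p = 0.0239. Under median centring of the arrays in place of loess, in which the median of all genes moved to 0.13 at both steps and calls of all genes went from 48.1% to 65.0% higher at step 4 and from 50.1% to 66.1% at step 5, 0 of these other motors were called lower at either step.

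Genes that work with the motors were counted from lists of their own. Of 20 dynactin subunits and dynein cofactors 11 were higher and 4 lower at step 4, and 11 higher and 6 lower at step 5, with medians of 0.44 and 0.50, where 15.0% and 20.3% of all genes were called higher and 16.2% and 20.2% lower. Dctn1, the large subunit of dynactin, was higher by 0.92 (SE 0.15, adjusted p = 0.00176) and 1.17 (SE 0.15, adjusted p = 0.000295), and Dctn2 to Dctn6 and Actr1a were higher at both steps. The genes called lower at both steps were Pafah1b1, which encodes the dynein regulator Lis1, Hook1, Nudc and Spdl1, an adaptor of dynein at kinetochores, and Nde1 and Zw10 were lower at step 5. Spdl1 differed by -0.73 (SE 0.16, adjusted p = 0.00706) and -1.33 (SE 0.16, adjusted p = 0.000211) and Pafah1b1 by -0.59 (SE 0.10, adjusted p = 0.00268) and -0.69 (SE 0.10, adjusted p = 0.00075). Of 20 kinesin adaptors and cargo linkers 12 were higher at step 4 and 14 at step 5, and 0 were lower, beside the same shares of all genes. Mapk8ip1, which links kinesin-1 to cargo, was higher by 1.62 (SE 0.42, adjusted p = 0.0156) and 2.56 (SE 0.42, adjusted p = 0.00112), and Fez1, another kinesin-1 adaptor, by 1.62 (SE 0.42, adjusted p = 0.0158) and 1.85 (SE 0.42, adjusted p = 0.00604). Kifap3, the cargo-binding subunit of kinesin-2, was higher by 0.63 (SE 0.15, adjusted p = 0.0126) and 0.92 (SE 0.15, adjusted p = 0.00131). Of 5 kinesins outside the name pattern 0 were called at step 4, or 1, Kifc2, with the replicate block, and 5 at step 5, or 4 with the block, which lost Kifc3. At step 5 the mitotic motors Cenpe, Kifc1 and Kifc5b were lower, at -1.47, -1.81 and -1.13, and Kifc2 and Kifc3 higher, at 2.01 and 0.58.

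Set against mESC, between 5 and 10 of the 10 mitotic kinesins were lower in each group and 0 were higher. In step 4 control cells 5 of 10 mitotic kinesins were below mESC and 0 above (all genes, 17.4% lower and 21.4% higher), with a median of -0.30. In step 4 enriched cells all 10 were lower, with a median of -1.05 (all genes, 31.5% lower and 35.4% higher). In step 5 control cells 7 of 10 were lower, with a median of -0.54 (all genes, 19.0% lower and 25.7% higher), and in step 5 enriched cells all 10, with a median of -2.00 (all genes, 33.1% lower and 38.4% higher). Kif2c, for example, was -0.43 ± 0.27 (SD, n = 3), -1.81 ± 0.03, -0.76 ± 0.23 and -2.65 ± 0.32 in the 4 groups, in the same order.

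Of the axonal transport genes, 3 were above mESC and 1, Klc2, below in the control cells of each step, where the 3 were Kif1a, Kif1b and Klc1. Enriched cells had 9 above mESC at step 4, all but Kif5b, and 9 above at step 5, all but Klc2. With the replicate block Kif5b passed in step 4 enriched cells too, at adjusted p = 0.0274, Kif5c was called in step 4 control cells, and in step 5 control cells Kif3a was called and Klc2 was not. Kif1a stood at 2.69 ± 0.80 (SD, n = 3) and 4.05 ± 0.29 at step 4 and at 2.65 ± 0.41 and 4.37 ± 0.11 at step 5 in control and enriched cells. Dynein 1 subunits above mESC numbered 6 and 10 of 12 at step 4 and 7 and 10 at step 5, in control and enriched cells, and 11 in step 4 enriched cells with the block, which added Dynlrb2. Of all genes 21.4% and 35.4% were called above mESC at step 4 and 25.7% and 38.4% at step 5, in control and enriched cells. The 3 of 10 axonal transport genes above mESC in control cells are near these shares. These comparisons use 1 reference RNA on all arrays with 0 dye swaps. Without slide 3 the 22 motor genes called in step 4 control cells became 9. A dye effect of a probe cannot be told apart from a difference from mESC, whereas it cancels between groups.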

How the data were processed

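The motor genes and the gene lists were chosen with earlier results of these data known. Per the file headers, the scanner files hold raw intensity for both dyes, as the mean of each spot and the median of the area around it, and a log10 ratio of Cy5 over Cy3 that the software had background-subtracted and dye-normalized, per the file headers. The deposited table holds log2 ratios that equalled the scanner's own, to 0.001 for over 99% of probes on each array (tolerance), and its making is not stated in the sources used here.

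Here background was corrected from the mean signals by normexp (offset 50), arrays were normalized by loess, control and outlier spots were dropped and the spots of each probe averaged. A gene stood by its brightest probe and was tested if, in some group, 3 of 3 arrays had a Cy5 signal well above background. Newer probe names, found on 8 arrays, were used for all 12; by the older names of the other 4 arrays 4 of the 78 motor probes have another name and the number of motor genes is also 56. One limma model (limma 3.58.1, R 4.3.3) was fitted to the 4 group means over all genes, with two-sided moderated tests, Benjamini-Hochberg adjustment and a threshold of 0.05. SE values and 95% intervals come from this model. The tests were tried on simulated data with independent arrays, which cannot show how they behave when arrays of a slide are correlated.

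Arrays of the same number share a slide. Their deviations from the group means correlated at 0.13 to 0.64 between control and enriched cells at step 4, at 0.19 to 0.36 at step 5, at 0.34 to 0.41 between the enriched groups and at 0.46 to 0.75 between the control groups, and so the replicate number was fitted as a block as an alternative. Slide 2 was scanned on another day with another software version. In all 25 alternatives were run, 15 of which leave out arrays. The alternative that scales the average intensities between arrays leaves the log ratios unchanged, so it had to repeat the main result. The deposited values and the scanner software's ratios are nearly the same numbers and count as 1 check rather than 2. By rule, the value of every array was given for 18 motors named in advance and for the 3 with the largest difference among those called in a comparison, which added Kif1b and Kif20b; Kif6, Kif9 and Dynlrb2 were added after their values were seen. The motor genes have 17 members with several probes.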

Additional observations from a re-analysis of the deposited data

Results flagged for a closer look

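For 2 motors the enriched cells were lower at step 5 than at step 4 on every slide while the control cells were higher on every slide. These opposite directions were seen without a test, and the test of the difference itself did not pass for either. Dync1h1, the heavy chain of cytoplasmic dynein 1, differed by -0.256 from step 4 to step 5 in enriched cells and by 0.127 in control cells; the tested difference between its enrichment effects was -0.38 (SE 0.16, limma adjusted p = 0.67). Kif26b, a kinesin that binds microtubules without moving along them, differed by -0.310 in enriched cells and by 0.252 in control cells, with a difference of -0.56 (SE 0.32, limma adjusted p = 0.797). Cy3 signal for Kif26b was above background on 1 of 12 arrays.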

How the results depend on the processing

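The counts of motor genes called, of 53 tested, depended most on which arrays were left out. At step 4 the count of 34 ranged from 7 to 35 when single arrays or slides were left out and from 25 to 37 under the other alternatives. At step 5 the 33 ranged from 23 to 32 and from 30 to 36. From step 4 to step 5 in enriched cells the 12 ranged from 0 to 14 and from 11 to 14. In control cells the 0 became 1, Dynlrb2, without the step 5 control array of slide 2 or without slide 2, and stayed 0 otherwise. The difference of the enrichment effects gave 0 in all. Against mESC, the 22 of step 4 control cells ranged from 9 to 24 and from 22 to 29, the 44 of step 4 enriched cells from 37 to 45 and from 42 to 47, the 27 of step 5 control cells from 21 to 29 and from 26 to 35, and the 45 of step 5 enriched cells from 42 to 46 and from 44 to 49. The step 4 count fell to 16 without the control array of slide 2, to 18 without the enriched array of slide 2 or of slide 3, and to 22, 10 and 7 without slides 1, 2 and 3. For enriched cells between steps the count was 7 and 5 without the step 4 arrays of slides 1 and 2, 5 without the step 5 array of slide 3, and 2 and 0 without slides 1 and 3. Fewer arrays leave fewer residual degrees of freedom. Under the 25 alternatives none of the genes named by the rule had a call in the opposite direction. With the replicate number as a block, 36 motors were called at step 4, 35 at step 5 and 13 between the steps in enriched cells. The block raised the calls over all 22312 genes too. They were 4430 higher and 4339 lower at step 4, against 3340 and 3610 without it. At step 5 they were 5202 and 5270, against 4527 and 4501, and between the steps 1460 and 981, against 883 and 550. A call gained with the block is therefore not particular to the motors. Against mESC the block gave 26 and 47 motors in control and enriched cells of step 4 and 31 and 45 in those of step 5, without a share of all genes beside them. Dim probes such as Kif27 carry values close to the background.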
